A study of Mus musculus with 7 samples.

Results

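Trp63 encodes p63, a transcription factor of the p53 family, and the arrays read it with 4 probes at separate places along the gene. The members were every non-control row that the scanner files name Trp63, and 0 rows carried its older name Trp73l. This gave 4 probes with 1 spot each, of 55681 probes in all. Trp63 was chosen from its readings on these arrays: its probes were already known to give different AER minus ectoderm differences, so its values are described here without a test.

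RNA came from forelimbs of mouse embryos of the C57/Bl6 strain, taken at embryonic day 11.5. On 3 one-colour (Cy3) Agilent arrays the microdissected AER was measured, which is the apical ectodermal ridge along the rim of the limb bud. The control, on 4 arrays, was given as surface ectoderm of the posterior limb, a flat covering epithelium. These arrays read 10 of 12 limb mesenchyme markers and 7 of 7 tested muscle progenitor markers higher than the AER arrays did, as given below. How much RNA of other tissues the ectoderm pools held was not tested. No genotype other than the strain and no treatment is given for either group. RNA of 2 to 3 mice was pooled for each replicate and 75 ng was labelled, so errors and p-values measure the spread between pools. The files of ectoderm replicates 2 and 4 carry the same number in their names, and they were counted as 2 replicates. With those 2 averaged into 1, the differences of the Trp63 probes were 1.81, 2.16, -0.34 and 1.81 in the genomic order given below, and 2260 genes differed against 3265 with both counted.

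p63 is needed to build stratified epithelium, and mice without it lack a normal epidermis and have absent or truncated limbs, without a proper ridge. In humans, mutations in the gene cause syndromes that join split hands and feet with ectodermal defects. The gene has alternative promoters, giving long (TA) forms and shorter (deltaN) forms that lack the first activation domain, and its 3′ end is spliced in several ways. A probe may therefore read some transcripts of the gene and not others.

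The sequences are shown because 1 of the 4 probes differs from the others in its composition. They run 5′ to 3′ as the files give them, on the plus strand of mouse chromosome 16, build mm9. The probe with a repeat is printed whole, with its run of tandem CAG units in capitals, and of the other probes the first 30 of 60 bases are shown.
A_55_P1952056: acttaccatgtgtcctggctatagcttttc
A_52_P338796: cagtcccatataccatgcacttaactcttt
A_55_P2161055: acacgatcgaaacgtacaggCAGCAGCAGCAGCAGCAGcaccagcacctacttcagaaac
A_51_P216550: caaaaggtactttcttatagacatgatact

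From the lowest coordinate up, A_55_P1952056 lay at chr16:25821344-25821403 and A_52_P338796 followed 46374 bases further on, at chr16:25867718-25867777. A_55_P2161055 lay 3441 bases beyond that, at chr16:25871159-25871218, and A_51_P216550 another 20853 bases on, at chr16:25892012-25892071. Within the 70728 bases from the first to the last, the array held 4 probes, and all 4 were named Trp63. The exon or untranslated region under each probe was not looked up here. G and C made up 45%, 36.7%, 55% and 35% of the bases of the 4 probes in this order. A_55_P2161055 held 6 tandem CAG units, a codon for glutamine when read in frame, and no other Trp63 probe held more than 1.

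The probes are listed under different transcripts, which does not show that each reads only those. The array's own annotation gives A_55_P1952056 as AK138305, a RIKEN cDNA from adult hypothalamus, and A_52_P338796 as AK048623, a RIKEN cDNA from embryonic head. It lists 3 RefSeq transcripts for A_55_P2161055, NM_001127261, NM_001127263 and NM_001127265. For A_51_P216550 it lists 4, NM_011641, NM_001127259, NM_001127260 and NM_001127264. Of the 8 RefSeq mRNAs of Trp63 in the reference table, 7 were thus listed by a probe, 0 by more than 1 probe, and 1 by none. Which of the TA, deltaN and 3′ forms each probe reads was not settled here.

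Across the arrays as a whole, the 75th percentile of the processed signal over the probes (a brightness in scanner units, background-subtracted) ran from 341 to 564 in AER and from 257 to 444 in ectoderm. The share of spots well above background was 48.7% to 55.2% in AER and 48.9% to 51.1% in ectoderm, and 0 spots were saturated. The 7 arrays were on 1 slide with 1 scan time. Markers of the AER were checked against the labels: 12 of the 13 tested were higher in AER, against 7.01% of all genes, with array means of 3.01 to 3.52 in AER and -1.07 to 0.40 in ectoderm on the log2 scale used below. Of the ectoderm arrays, replicate 3 read most of these markers highest, though not Fgf9, Sp9 or Cd44. Fgf8 stood at 2.20 on it, against -2.33 to -1.40 on the other ectoderm arrays. The cause was not tested. Of 12 limb mesenchyme markers 10 were lower in AER, against 8.66% of all genes, with array means of 1.44 to 1.92 in AER and 4.22 to 4.80 in ectoderm, and so were 7 of 7 muscle progenitor markers, with -4.07 to -2.73 in AER and 0.59 to 1.30 in ectoderm. Other lists did not follow: 0 of 7 endothelial, 0 of 6 erythroid and 0 of 5 macrophage markers passed the limma test (0, 2 and 1 at an unadjusted p under 0.05), and 2 of 4 neural, Schwann and melanoblast markers were higher in AER and 0 lower.

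On all 7 arrays the probe A_55_P1952056 was well above background. Its processed signal was 1691, 2080 and 1784 on the AER arrays and 489, 565, 316 and 462 on the ectoderm arrays. To compare arrays, each value was taken as log2 and the array's own 75th percentile was subtracted. The AER levels were then 2.31, 1.88 and 2.18, and the ectoderm levels 0.26, 0.35, 0.30 and 0.42. The groups did not overlap: the lowest AER array lay 1.46 above the highest ectoderm array, a gap wider than the spread of either group. The means were 2.13 ± 0.22 in AER and 0.33 ± 0.071 in ectoderm (SD, n = 3 and 4), a difference of 1.79, or 3.47-fold higher in AER. On AER replicates 1 and 2, which sat in the same slide column, the scanner software had divided this spot by a detrending factor of 0.684 and 0.662, which raised it, against 0.978 on AER replicate 3 and 0.965 to 1.00 on the ectoderm arrays. Without that step the difference was 1.45.

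A_52_P338796 was read close to background in ectoderm. Its processed signal was 170, 186 and 204 on the AER arrays and 42.0, 50.9, 18.2 and 51.6 on the ectoderm arrays, and it was well above background on all 3 AER and on 3 of 4 ectoderm arrays. Ectoderm replicate 3 was the array below that limit. On the log2 scale the AER levels were -1.01, -1.60 and -0.95, and the ectoderm levels -3.28, -3.12, -3.82 and -2.74. Again no ectoderm array reached the lowest AER array, and 1.14 separated them. The means were -1.18 ± 0.36 in AER and -3.24 ± 0.45 in ectoderm (SD, n = 3 and 4), which is 2.06 or 4.17-fold higher in AER. This size depended on how background was treated: with the normexp correction, whose offset of 50 is about the size of the ectoderm signals, the difference was 1.09.

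A_51_P216550, the probe that lists the largest number of RefSeq transcripts, gave a processed signal of 3455, 5960 and 6566 on the AER arrays and 1115, 2200, 868 and 1432 on the ectoderm arrays. All 7 readings were well above background. Its AER levels were 3.34, 3.40 and 4.06, and its ectoderm levels 1.45, 2.31, 1.76 and 2.05. AER replicate 3 stood highest and ectoderm replicate 1 lowest, and the groups lay 1.03 apart. The means were 3.60 ± 0.40 in AER and 1.89 ± 0.37 in ectoderm (SD, n = 3 and 4), a difference of 1.71 or 3.27-fold higher in AER. Detrending had lowered this spot on AER replicates 1 and 2, by factors of 1.28 and 1.33, and without it the difference was 1.94.

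The remaining probe, A_55_P2161055 with the CAG run, behaved differently. Its processed signal was 3114, 5155 and 3296 on the AER arrays and 4577, 3871, 3660 and 3109 on the ectoderm arrays, all well above background. Scaled to each array, the AER levels were 3.19, 3.19 and 3.07, and the ectoderm levels 3.48, 3.12, 3.83 and 3.17. The 3 AER arrays lay close together and inside or just under the range of the ectoderm arrays, of which replicate 3 was highest. The means were 3.15 ± 0.072 in AER and 3.40 ± 0.33 in ectoderm (SD, n = 3 and 4), and the difference of -0.25 (0.84-fold) was smaller than the spread among the ectoderm arrays. Its sign was not stable: it was 0.0069 with normexp and the 75th percentile, 0.083 in the authors' processed values and -0.019 without detrending. Without ectoderm replicate 3 it was -0.11.

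The differences of the 3 probes without a CAG run lay between 1.71 and 2.06, a range of 0.35, while all 4 together spanned 2.31. The 3 probes lay this close only in some processings. With normexp and the 75th percentile they were 1.34, 1.09 and 1.92 in genomic order. In the authors' processed values they were 1.36, 1.17 and 2.00. Among all 28296 probes kept (those well above background on 3 arrays or more), 1.78% had a higher difference than A_55_P1952056, 1.34% than A_52_P338796 and 1.99% than A_51_P216550. For A_55_P2161055 the figure was 67.3%. Averaged within each array, the 3 probes gave 1.51 ± 0.27 in AER and -0.34 ± 0.25 in ectoderm, a difference of 1.85 (3.62-fold). With A_55_P2161055 included, the average was 1.92 ± 0.19 in AER and 0.60 ± 0.12 in ectoderm, a difference of 1.33 (2.51-fold). When a gene is represented by its probe of highest mean signal, as in the test across all genes below, A_55_P2161055 stands for Trp63.

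A range as wide as that of Trp63 was rare on these arrays. Of 3856 other genes with at least 2 kept probes, 19 (0.493%) had a range of 2.31 or more, and the median range was 0.24. Of 686 other genes with at least 3 kept probes, 9 (1.31%) did, with a median of 0.41, and of 94 other genes with exactly 4, 1 did, with a median of 0.56. A brightest probe whose difference was opposite in sign to those of all the gene's other probes was more common, found in 86 (12.5%) of the genes with at least 3 probes and 8 (8.51%) of those with 4. These counts describe the array and are no test, as Trp63 was chosen for its spread.

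The pattern of each probe over the arrays was also set beside those of other genes. Each probe's levels were centred on its own mean over the 7 arrays and compared with those of 13471 other genes with a symbol, by the root mean square (RMS) distance over the 7 arrays. This distance takes in the difference between the groups as well as the order of arrays within a group. For A_55_P1952056 the nearest genes were Fzd10, a WNT receptor gene (distance 0.144), B3gnt8, a glycosyltransferase gene (0.163), and Kctd6 (0.175), whose differences were 1.75, 1.85 and 2.01. For A_52_P338796 they were Slc52a3, a riboflavin transporter gene (0.219), Rab38, a small GTPase gene (0.225), and Gfra2, a receptor gene of the GDNF family (0.240), with differences of 1.81, 2.20 and 1.86. The Slc52a3 probe was above background on 1 of 4 ectoderm arrays. For A_51_P216550 they were Ripk4, an epidermal kinase gene (0.125), Slc6a13, a transporter gene (0.137), and Tfap2a, an ectodermal transcription factor gene (0.137), with differences of 1.79, 1.78 and 1.83.

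For the CAG-run probe, A_55_P2161055, the nearest genes were Olfr74, named as an olfactory receptor gene (distance 0.0585), Crebbp, a histone acetyltransferase gene (0.0721), and Rbm15b, an RNA-binding protein gene (0.0903), with differences of -0.17, -0.27 and -0.24. The Olfr74 probe was read near background, and passed that limit on 3 of 3 AER and 2 of 4 ectoderm arrays. The Crebbp probe holds a CAG run as well. It lies at chr16:4084710-4084769 on the minus strand, build mm9, and is shown with its CAG runs in capitals for comparison with the Trp63 probe above.
Crebbp A_55_P1965836: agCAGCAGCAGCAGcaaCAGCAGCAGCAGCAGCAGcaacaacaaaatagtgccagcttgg

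After this match had been seen, all probes were searched for the run. The letters searched were CAGCAGCAGCAGCAG, 5 tandem units in any of the 3 frames of the repeat, on the probe's own strand. Besides the Trp63 probe, 6 kept probes held it. Of these, 5 lay within a distance of 0.15 of the pattern of A_55_P2161055, against 120 of the 28292 kept probes not of Trp63 (0.424%) and 78 of 17705 at least as bright as the dimmest of the 6 (0.441%). Without the Crebbp probe, which had prompted the search, it was 4 of 5. The 5 were the probes of Crebbp (0.0721), Git2 (0.102), Arhgap17 (0.104), an unnamed transcript (A_55_P2077546, 0.126) and Pif1 (0.143), and the sixth, BC051142, lay at 0.197. Their AER minus ectoderm differences were -0.27, -0.11, -0.22, -0.38, -0.038 and 0.0042 in that order, against -0.25 for the Trp63 probe. The probes of Crebbp and BC051142 held 6 tandem units, as the Trp63 probe did, and the others held 5. The limits of 5 units and of 0.15 were not planned beforehand.

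Of 37 probes with 3 or 4 tandem units 0 lay within 0.15, and so did 0 of 6 that held the run on the opposite strand. With a share of 0.424% over all kept probes, counts of 0 in sets this small do not set them apart from other probes. Their median distances were 0.343 and 0.331, against 0.369 over all kept probes. From the other Trp63 probes the 6 CAG-run probes of the same strand lay 0.941 to 1.33 away. Those Trp63 probes had an RMS of 0.897, 1.08 and 0.907 around their own means in genomic order, as they differed between the groups. A probe with a small group difference would lie about as far, so this distance does not bear on the repeat. On the scaled levels the CAG-run probes including that of Trp63 were all highest on ectoderm replicate 3, where A_55_P2161055 stood 0.54 above its own mean. Before scaling, A_55_P2161055 was not highest there. Its processed signal was 3660, against 4577, 3871 and 3109 on the other ectoderm arrays and 3114, 5155 and 3296 on the AER arrays. The value subtracted in scaling was lowest on ectoderm replicate 3, at 257 in scanner units. The part of the scaling in this shared high level was not tested. Under the other processings of the values, 4 or 5 of the 6 lay within 0.15, where the share of all kept probes was 0.371% to 0.718%. A shared run of 20 bases was found between A_55_P2161055 and 4 other probes on the array, counting both strands, and between the other Trp63 probes and 0. Of these 4, the Crebbp probe held the run on the same strand, and those of Med1, a Mediator subunit gene, of 2610005L07Rik and of an unnamed transcript held it on the opposite strand. The opposite-strand probes differed by 0.23, 0.22 and 0.18 between AER and ectoderm. Whether A_55_P2161055 bound transcripts of other genes was not tested, and the comparison of patterns was made after its values had been seen.

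Epithelial markers in general separated the groups in the same direction. Of 18 pan-epithelial markers, 16 were higher in AER and 0 lower by the limma test described below, against 7.01% and 8.66% of all genes (16 and 1 at an unadjusted p under 0.05), with a median difference of 1.74. Their mean was 1.69 to 1.93 in AER and 0.035 to 0.52 in ectoderm, so it separated the groups as the 3 Trp63 probes did. When each array was centred on these markers, the differences were 0.24 for A_55_P1952056, 0.51 for A_52_P338796 and 0.16 for A_51_P216550, and that of A_55_P2161055 was -1.81. This centring lowers every difference alike, and under it 236 of 20840 genes were higher in AER and 19552 lower. In bulk tissue, fewer cells of a type and less RNA per cell cannot be told apart. The part that the share of epithelial cells has in the Trp63 differences was not tested.

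Both groups were present in each slide row, but not in each column. Column 1 held AER replicates 1 and 2 alone, columns 2 and 4 held ectoderm arrays alone, and column 3 held 1 array of each group. Spots of probes printed 10 times varied more on AER replicates 1 and 2, with a typical SD of 0.18 and 0.17 on the log2 scale against 0.057 on AER replicate 3 and 0.060 to 0.061 on the ectoderm arrays. The part of the column in the Trp63 differences was not tested. Slide row 1 held AER replicate 1 and ectoderm replicates 1 to 3, and row 2 held AER replicates 2 and 3 and ectoderm replicate 4, so each row compares a group with 1 array of the other. Within row 1 and row 2, in that order, the differences were 2.01 and 1.61 for A_55_P1952056, 2.40 and 1.47 for A_52_P338796, -0.29 and -0.041 for A_55_P2161055, and 1.50 and 1.68 for A_51_P216550. The difference of the CAG-run probe was below those of the other 3 within both rows, and also under each of the other alternatives run, from leaving out any 1 array to the authors' processed values.

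The nearest named gene before the Trp63 probes was Tprg, whose probe lay 399 kb before the first of them. It was above background on only 2 of 3 AER and 0 of 4 ectoderm arrays and was not tested. The nearest beyond them was P3h2, a collagen prolyl hydroxylase gene at 73.9 kb, which differed by -0.98, with levels above background on 2 of 3 AER and 4 of 4 ectoderm arrays. Of 36 probes within 1 Mb of the Trp63 probes, 13 were above background on at least 3 arrays.

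The other genes of the family were tested in the fit across all genes, limma's moderated test with 1 probe a gene and Benjamini-Hochberg adjustment over 20840 genes. By this test 15.7% of genes differed at an adjusted p under 0.05, 7.01% higher in AER and 8.66% lower, and the median difference over all genes was -0.084. The split was 1460 higher and 1805 lower, and 1933 higher and 1437 lower when each array was scaled by the 75th percentile of the probes detected on every array. Trp53, the tumour suppressor gene p53, was at 1.65 ± 0.29 in AER and 1.26 ± 0.25 in ectoderm (SD, n = 3 and 4), a difference of 0.39 with a 95% interval of -0.069 to 0.84 (limma, adjusted p = 0.227). Trp73, encoding p73, was at -1.88 ± 0.16 in AER and -2.00 ± 0.25 in ectoderm, a difference of 0.12 with an interval of -0.29 to 0.53 (limma, adjusted p = 0.685). A further kept Trp73 probe gave 0.29.

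Genes known from epidermal studies as p63 targets were mostly higher in AER. Of 42 such genes on the array, 40 were tested, and 22 were higher in AER, 1 was lower and 17 did not pass, so that 57.5% differed against 15.7% of all genes. The median difference was 1.38. For 33 of the 40 the groups did not overlap, against 30.4% of all genes. For 31 of these every AER array was the higher (12.5% of all genes) and for 2 every AER array was the lower (17.9% of all genes). Dsc3, a desmosomal cadherin gene, and Serpinb5, a serpin gene, were above background on too few arrays to be tested. With each array centred on the pan-epithelial markers, 8 targets were higher and 15 lower, with a median of -0.17 against -1.64 over all genes. Within slide rows 1 and 2, where 650 and 1364 of all genes differed, 6 and 14 targets did, with medians of 1.26 and 1.25. The single array of a group in each row is assumed to vary like the others.

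Of the targets with the smallest p, Edar, the receptor gene of ectodysplasin signalling, was above background on 3 of 3 AER and 0 of 4 ectoderm arrays and was at least 4.09-fold higher (limma, adjusted p = 1.37e-05). Dlx5, a homeobox gene of the split hand/foot locus, was at 1.91 ± 0.17 in AER and -1.53 ± 0.27 in ectoderm (SD, n = 3 and 4), or 10.8-fold higher (limma, adjusted p = 2.24e-05). Dlx6, its linked partner, was detected on 3 of 3 AER and 1 of 4 ectoderm arrays, with a fitted fold of 8.51 (limma, adjusted p = 0.000623) that depends on readings near background.

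Cldn1, a tight junction gene 465 kb beyond the last Trp63 probe, was above background on 3 of 3 AER and 0 of 4 ectoderm arrays and at least 2.16-fold higher (limma, adjusted p = 0.000295). Itga6, a laminin receptor chain gene, was at 5.50 ± 0.24 in AER and 3.83 ± 0.17 in ectoderm (SD, n = 3 and 4), or 3.18-fold higher (limma, adjusted p = 0.000318). Under epithelial centring Itga6 was at 0.12 on the log2 scale and did not pass (limma, adjusted p = 0.624). Fras1, a matrix gene of the Fraser complex, was 2.80-fold higher (limma, adjusted p = 0.000692), and -0.068 on the log2 scale under epithelial centring. The target that was lower was Igfbp3, which encodes a binding protein of insulin-like growth factors, at -2.85 ± 0.87 in AER and 0.24 ± 0.60 in ectoderm, 8.55-fold lower in AER (limma, adjusted p = 0.00188). For the dim genes normexp with the 75th percentile gave smaller log2 differences: 1.17 for Edar against a fitted 4.20, 0.71 for Cldn1 against 2.92, 1.18 for Dlx6 against 3.09 and -2.24 for Igfbp3 against -3.10.

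Most regulators and partners of p63 did not pass the test. Of 21 tested, 5 were higher in AER and 0 lower (limma, 5 and 0 at an unadjusted p under 0.05), a share of 23.8% against 15.7% of all genes, with a median of 0.065. Tfap2c, a transcription factor that acts with p63 in surface ectoderm, was at 3.40 ± 0.19 in AER and 0.28 ± 0.36 in ectoderm (SD, n = 3 and 4), or 8.72-fold higher (limma, adjusted p = 4.80e-05). Klf4, a Kruppel-like factor of barrier epithelium, was 3.62-fold higher (limma, adjusted p = 0.000379). Ppp1r13l, which encodes the p53 family inhibitor iASPP, was 2.35-fold higher (limma, adjusted p = 0.0041), and Wwp1, a ubiquitin ligase gene, 1.68-fold (limma, adjusted p = 0.0138). Under epithelial centring, where the median over all genes was -1.64, Ppp1r13l stood at -0.32, Wwp1 at -0.81 and Runx1 at -0.36 (log2). Klf4 stood at 0.30 there and no longer passed (limma, adjusted p = 0.229). The fifth was Runx1, a runt factor gene named after its value was seen, with a difference of 1.19 (limma, adjusted p = 0.0278). It did not pass once AER replicate 1 or 3 was left out (adjusted p = 0.0800 and 0.0817), once ectoderm replicate 1 or 3 was (adjusted p = 0.0635 and 0.0599), or with normexp (0.58, adjusted p = 0.0774). Nor did it pass in the authors' processed values (0.64, limma, adjusted p = 0.0626). A further kept Runx1 probe gave 1.31, and the mean of the Runx1 probes passed (1.25, limma, adjusted p = 0.00209). The call of Wwp1 was lost without ectoderm replicate 4 (adjusted p = 0.0514). Within slide rows 1 and 2, with 1 array in a group of each, 1 and 2 of the 21 passed.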

How the data were processed

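Total RNA was labelled with Cy3 and read on 7 one-colour Agilent arrays. The deposited scanner files give a processed signal as an intensity, background-subtracted and detrended within the array by Feature Extraction, per the file headers, with the mean spot and local background intensity. They also hold other columns, flags per spot, and the detrending factor as a ratio, per the file headers. The authors deposited processed values on a log2 scale with the same sorted values on every array, and the submitters' processing notes name limma without a version.

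From these files levels were computed as the log2 processed signal minus the 75th percentile of the array's non-control probes, leaving out flagged spots. Of 62976 spots 59305 were not controls, holding 55681 probes. A probe was kept when well above background on at least 3 of 7 arrays (28296 probes, 50.8%), and the kept probe of highest mean stood for each of 20840 genes. Gene names came from RefSeq accessions (26300 probes), symbols (2044), older symbols (355) or the file (26982). Groups were compared with limma 3.58.1 in R 4.3.3 (lmFit and eBayes, two-sided, 5 residual and 3.49 prior degrees of freedom), tested on simulated data. There it recovered 43% of 100 genes changed by 1 on the log2 scale and 97% of 100 changed by 2, with 5 false calls. A gene that did not pass may therefore still differ. A fold is a lower bound ("at least") where every ectoderm array was dim, taken against the dimmest detected signal of each such array. Positions are on mm9, per the file headers. Python 3.11.15, pandas 2.3.3, numpy 2.4.6 and data.table (version 1.17.8) were used.

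Trp63, the gene lists and the tests were chosen with earlier results of these data known. The rule for naming took every Trp63 probe, the p53 family, up to 8 targets and 4 regulators of smallest p in each direction past the threshold, the 3 genes nearest in pattern to each Trp63 probe and the nearest named genes on each side. Not all genes under this rule are reported. Alternatives covered background correction, normalization, scaling, detrending (added after seeing the data), filters, replicates and slide rows. The labels do not say that pools shared no litter.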

Additional observations from a re-analysis of the deposited data

How the results depend on the processing

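The 7 arrays and 1 spot a probe limit the precision, and dim readings on ectoderm arrays limit A_52_P338796. With normexp and the 75th percentile the differences were 1.34 for A_55_P1952056, 1.09 for A_52_P338796, 0.0069 for A_55_P2161055 and 1.92 for A_51_P216550. With normexp and quantile normalization, which gave the authors' values, they were 1.36, 1.17, 0.083 and 2.00. By construction the normexp offset shrinks differences of dim probes. Without detrending A_55_P1952056 was at 1.45. Within slide row 1 it was 2.01, and within row 2 it was 1.61, with 1.47 for A_52_P338796 and a range of 1.72 over the probes. Genes that differed numbered 650 and 1364 within the rows, of them 6 and 14 targets and 1 and 2 regulators; fewer arrays entered each fit. Centring on pan-epithelial markers, which lowers every difference alike, gave 0.24, 0.51, -1.81 and 0.16 for the Trp63 probes in genomic order. With it 19788 genes and 18 regulators differed. It turned Fras1 to -0.068, Ppp1r13l to -0.32, Wwp1 to -0.81, Runx1 to -0.36, Trp53 to -1.17 and Trp73 to -1.43. Itga6 at 0.12 and Klf4 at 0.30 kept their sign under it but no longer passed. Same-numbered arrays deviated from their group means with correlations of -0.032, 0.19 and 0.13, not every array correlated best with its own number, and the numbers were not taken as pairs. With the replicate block 3 regulators and 26 targets differed, of 2442 genes, and the Trp63 probes stood at 1.82, 2.23, -0.33 and 1.76. Leaving out 1 array gave 1.70 to 1.92 for A_55_P1952056, 1.87 to 2.27 for A_52_P338796, -0.35 to -0.11 for A_55_P2161055, 1.48 to 1.85 for A_51_P216550, 1.97 to 2.56 for their range, 2191 to 3274 differing genes, 20 to 23 targets and 4 to 5 regulators. For the 16 genes of the lists that were followed singly, 295 of 320 values under the alternatives other than centring kept their direction and side of the threshold, 25 lost significance and 0 reversed. Apart from Trp53 and Trp73, which did not pass in the main fit, these genes were named for passing on the same arrays. Runx1 alone gave 13 of the 25 losses. The cause of these changes was not tested beyond what is said here.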
